A study of Mus musculus with 9 samples.

Results

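Blood vessels of muscle are wrapped by mural cells, which are smooth muscle cells on arterioles and larger vessels and pericytes on capillaries. Smooth muscle cells hold the contractile proteins that set vessel tone, while pericytes share a basement membrane with the endothelium, depend on platelet-derived growth factor from it and steady the capillary wall. In skeletal muscle both are minor cell types among large fibres, so a whole-muscle library reads them through a few marker transcripts. The data described here are those of 7 such markers, chosen by name, with earlier results of these data known, of the 17314 genes listed for mouse gastrocnemius. Rgs5, Pdgfrb, Cspg4 and Notch3 mark pericytes and, in part, smooth muscle, and Acta2, Myh11 and Tagln mark contractile smooth muscle. All 7 were among the 13044 genes that passed the filter on low counts.

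Gastrocnemius, the large calf muscle, was taken from mice aged 6, 15 and 21 months, with 3 mice per age and 1 RNA-seq library per mouse. The animals are described as separate mice, and strain, sex and housing were not stated in the labels. The study asked about skeletal muscle aging and thyroid hormone receptor alpha, and age is the only difference between the groups that the labels name. Levels are given as CPM, counts divided by a library's size after TMM factors have adjusted that size for its composition. Differences between ages are log2 fold changes of the older over the younger age, so that a positive value means a higher level in the older mice. A gene was called when its p-value from edgeR's quasi-likelihood test, adjusted by Benjamini-Hochberg over all tested genes, was below 0.05.

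Total counts ranged from 15354396 to 17317856 per library. The labelled tissue held its own markers, since Acta1, the actin of skeletal fibres, stood between 20876 and 31276 CPM and Ckm, muscle creatine kinase, between 14163 and 22658 CPM. Library 2 of the 6-month mice stood apart from the rest. On the first principal component, which carried 35.2% of the variance, it lay at -48.0, while mouse 1 at 15 months lay at 27.6, mouse 3 at 21 months at 26.7 and the other 6 libraries between -9.76 and 12.1. The summed level of 7 slow and type 2A fibre genes was 3.88 CPM in that library and 593 to 5066 CPM in the other 8. Most of the sum in those 8 was Myh2, the myosin of type 2A fibres, which was at 0.751 CPM in that library, against 530.0 to 4395 CPM in the others. Myh7, the slow fibre myosin, was at 0.438 CPM there, against 2.33 to 166 CPM. Age differences, within-age spread and relations of the 7 genes are given with and without that mouse, and list results in part. In whole muscle, fewer cells of a type and less RNA per cell cannot be told apart.

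Promoter sequences of 4 of the 7 genes, Rgs5, Cspg4, Notch3 and Acta2, were read from the RefSeq table (build GRCm38.p6, whose chromosomes are those of mm10). The sequences of Rgs5 and Acta2 are shown because these genes, 1 from pericytes and 1 from smooth muscle, were high and low in the same mice, as described further on. The CArG box, bound by serum response factor and known from smooth muscle genes, was searched on both strands in the 250 bases before each start, once exactly and once allowing 1 mismatch among its middle bases. The first sequence covers the 250 bases before the Rgs5 start at chr1:169655251-169655500 on the plus strand. Next come 30 bases each around the Acta2 matches, at chr19:34255438-34255467 and chr19:34255388-34255417 on the minus strand. All are written 5′ to 3′, and capitals mark the CArG-like letters.
Rgs5: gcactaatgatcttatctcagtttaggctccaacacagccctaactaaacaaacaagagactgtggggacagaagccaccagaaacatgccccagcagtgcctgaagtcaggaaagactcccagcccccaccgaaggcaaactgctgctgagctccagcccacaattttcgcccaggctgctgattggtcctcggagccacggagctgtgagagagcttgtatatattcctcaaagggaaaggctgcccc
Acta2, upstream match: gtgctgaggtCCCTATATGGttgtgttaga
Acta2, downstream match: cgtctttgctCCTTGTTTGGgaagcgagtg

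The Acta2 matches ran over bases -84 to -75 and -34 to -25, counted back from the start used by the promoter table, where -1 is the base before it. That start, at 34255373 on chromosome 19, lies 212 bases inside the RefSeq gene span, which ends at 34255585. Both carry 1 mismatch, and 8.59% of 32851 RefSeq promoters hold such a match, while 1.47% hold an exact CArG box. An exact box was in 0 of the 4 promoters, and Rgs5, Cspg4 and Notch3 held no match with 1 mismatch either. A GENCODE transcript of Acta2 also starts further upstream, so that 217 of the 250 bases lie in its annotated first exon. The letters GGGCGG occurred 4 times in the Notch3 promoter and 2 times in that of Cspg4, counting both strands, and are present in 32.7% of all promoters. TGGGAA occurred in Acta2 at -27 to -22, where it overlaps the downstream CArG-like match, and is present in 21.6% of promoters. TATAA was in none of the 4 and in 22.8% of all promoters. The Notch3 window was the richest of the 4 in G and C, at 68.8%, and the median of all promoters was 52.4%. These matches describe letters in a window and were not tested for binding.

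Rgs5, a regulator of G protein signalling that is among the most abundant transcripts of pericytes, lies at chr1:169655501-169695813. It had 735, 540.4 and 689 CPM in mice 1 to 3 at 6 months, 914, 767 and 716 CPM at 15 months, and 654, 704 and 829.7 CPM at 21 months. The ages overlapped, with mouse 2 at 6 months lowest and mouse 1 at 15 months highest of all 9. Means were 655 ± 102, 799 ± 102 and 729 ± 90.5 CPM at 6, 15 and 21 months (SD over n = 3 mice each). Between 21 and 6 months Rgs5 differed by 0.16 on the log2 scale (SE 0.16), with a 95% interval from -0.19 to 0.50 and an adjusted p in edgeR of 0.762. The 15-month mice differed from those of 6 months by 0.29 (SE 0.16, edgeR adjusted p = 0.562). When mouse 2 at 6 months was left out these values were 0.03 and 0.17, and the first was 0.05 when mouse 3 at 21 months was.

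Pdgfrb encodes the receptor through which platelet-derived growth factor B recruits and keeps pericytes, and lies at chr18:61045127-61085067. Its levels were 65.2, 57.6 and 67.6 CPM at 6 months, 66.8, 67.0 and 58.4 CPM at 15 months and 58.9, 65.6 and 71.2 CPM at 21 months. It was the steadiest of the 7, with a highest level only 1.24 times the lowest and all ages overlapping. Means were 63.5 ± 5.22, 64.0 ± 4.91 and 65.2 ± 6.16 CPM at 6, 15 and 21 months (SD over n = 3 mice each). The difference of 21 against 6 months was 0.04 (SE 0.11, edgeR adjusted p = 0.931), and its 95% interval covered folds of 0.872 to 1.21. It became -0.03 when either mouse 2 at 6 months or mouse 3 at 21 months was left out. The difference of 15 against 6 months, 0.01 (SE 0.11, edgeR adjusted p = 0.977), lay between -0.05 and 0.08 when single libraries were left out, and was below 0 when mouse 2 at 6 months was left out, as it was when the first or second 15-month mouse was.

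Cspg4, also called NG2, is a membrane proteoglycan of pericytes and of some glial and progenitor cells, and lies at chr9:56865104-56899870. It had 11.4, 7.39 and 16.4 CPM at 6 months, 17.2, 16.3 and 12.8 CPM at 15 months and 13.6, 17.3 and 15.7 CPM at 21 months. Mice 1 and 2 at 6 months were the lowest of all 9, but mouse 3 of that age lay among the older mice, so the ages overlapped. Its smallest reading rested on 118 counts. The mean was 15.5 ± 1.83 CPM at 21 months, against 11.7 ± 4.50 CPM at 6 months (SD, n = 3 each), a log2 difference of 0.41 (SE 0.24, edgeR adjusted p = 0.585). Without mouse 2 at 6 months it was 0.16, and without mouse 3 of that age 0.73 (edgeR adjusted p = 0.197). At 15 months the mean was 15.4 ± 2.35 CPM, 0.40 above 6 months on the log2 scale (SE 0.24, edgeR adjusted p = 0.609). That difference was 0.15 when mouse 2 at 6 months was left out and 0.73 when mouse 3 was (edgeR adjusted p = 0.232).

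Notch3, the Notch receptor of mural cells, responds to Jagged ligands on the endothelium and lies at chr17:32120820-32166896. It had 48.2, 36.9 and 48.1 CPM at 6 months, 50.8, 50.0 and 40.7 CPM at 15 months and 43.5, 50.7 and 47.1 CPM at 21 months. Mouse 2 at 6 months was the lowest of all 9 and mouse 1 at 15 months the highest, and the ages overlapped. The mean of 47.1 ± 3.60 CPM at 21 months and the mean of 44.4 ± 6.49 CPM at 6 months (SD, n = 3 each) differed by 0.08 (SE 0.13, edgeR adjusted p = 0.864), and by -0.03 without mouse 2 at 6 months. At 15 months the mean was 47.2 ± 5.59 CPM (n = 3), 0.09 above that of 6 months on the log2 scale (SE 0.13, edgeR adjusted p = 0.843), and -0.03 without that mouse.

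Acta2, the smooth muscle alpha actin of the contractile filaments, lies at chr19:34240336-34255585. It had 70.6, 20.9 and 47.7 CPM at 6 months, 71.2, 66.4 and 60.5 CPM at 15 months and 41.3, 52.2 and 79.0 CPM at 21 months. The 15-month mice lay close together, while both other ages spread widely and overlapped with them. The mean was 57.5 ± 19.4 CPM at 21 months, against 46.4 ± 24.9 CPM at 6 months (SD, n = 3 each). The log2 difference was 0.31 (SE 0.36, edgeR adjusted p = 0.805), and its 95% interval ran from -0.49 to 1.11. It turned to -0.04 without mouse 2 at 6 months, was 0.01 without mouse 3 at 21 months, and was 0.74 when mouse 1 at 6 months was left out (edgeR adjusted p = 0.527). At 15 months the mean was 66.0 ± 5.36 CPM, 0.51 above 6 months on the log2 scale (SE 0.36, edgeR adjusted p = 0.659). This was 0.16 when mouse 2 at 6 months was left out and 0.94 when mouse 1 was (edgeR adjusted p = 0.442).

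Myh11, the smooth muscle myosin heavy chain and the most restricted of the contractile markers, lies at chr16:14194527-14292188. It had 78.3, 37.7 and 64.1 CPM at 6 months, 74.6, 69.3 and 58.8 CPM at 15 months and 48.7, 63.3 and 73.4 CPM at 21 months. The 6-month group held both the highest and the lowest mouse of all 9. Means were 60.0 ± 20.6, 67.6 ± 8.04 and 61.8 ± 12.4 CPM at 6, 15 and 21 months (SD over n = 3 mice each). The log2 difference was 0.04 at 21 against 6 months (SE 0.24, edgeR adjusted p = 0.972) and 0.17 at 15 against 6 months (SE 0.24, edgeR adjusted p = 0.829). Without mouse 2 at 6 months these became -0.21 and -0.08, and without mouse 3 at 21 months the first was -0.10. When mouse 1 at 6 months was left out instead they were 0.28 and 0.41.

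Tagln, the actin-binding protein transgelin (SM22 alpha), lies at chr9:45929628-45936058. It had 37.5, 15.5 and 28.2 CPM at 6 months, 49.2, 34.0 and 37.6 CPM at 15 months and 26.9, 36.1 and 51.6 CPM at 21 months. Mouse 2 at 6 months was lowest, mouse 3 at 21 months was highest, and the ages overlapped. The mean was 38.2 ± 12.5 CPM at 21 months, against 27.0 ± 11.0 CPM at 6 months (SD, n = 3 each), a log2 difference of 0.50 (SE 0.31, edgeR adjusted p = 0.602). It was 0.22 without mouse 2 at 6 months or without mouse 3 at 21 months, and 0.81 when mouse 1 at 6 months was left out (edgeR adjusted p = 0.449). At 15 months the mean was 40.3 ± 7.97 CPM, 0.57 above 6 months on the log2 scale (SE 0.31, edgeR adjusted p = 0.561). The value was 0.29 when mouse 2 at 6 months was left out and 0.88 when mouse 1 was (edgeR adjusted p = 0.435).

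**Figure D1:**
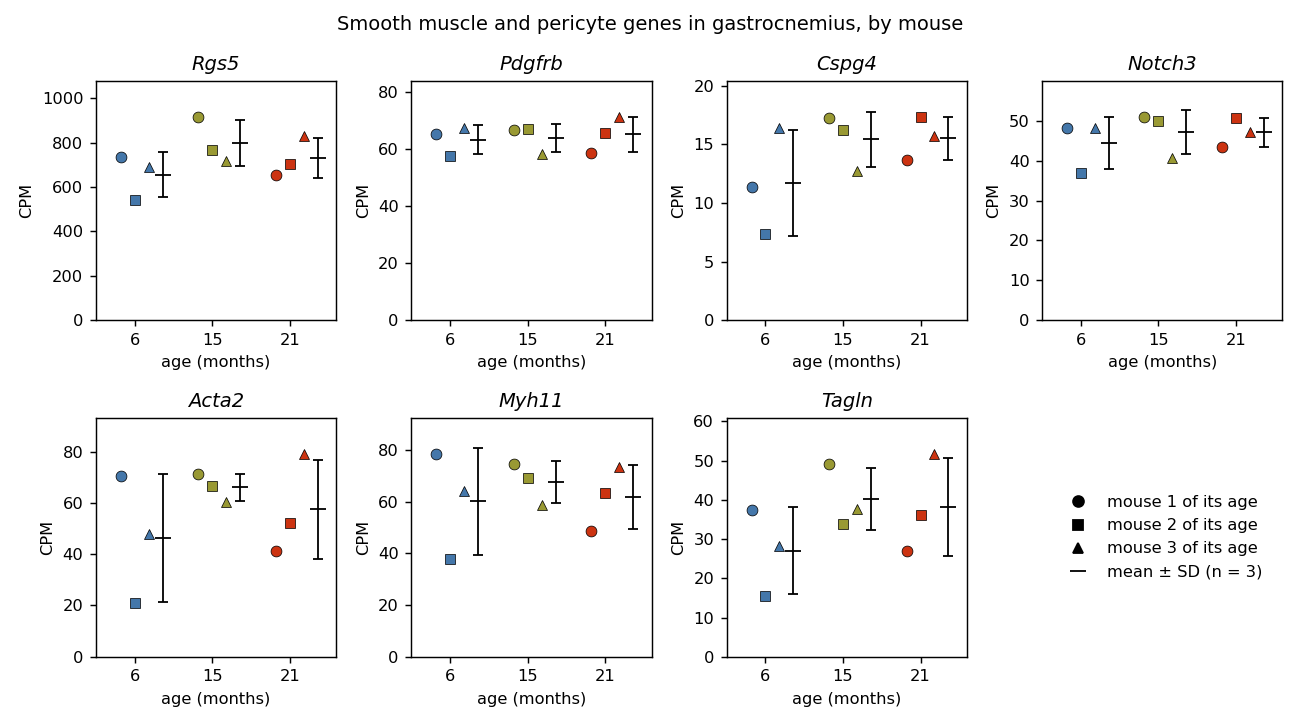
Level (CPM) of each gene in each mouse at 6, 15 and 21 months, with symbols for mouse 1, 2 and 3 of an age and the mean ± SD (n = 3) beside them. Mouse 2 at 6 months, the blue square, is the lowest of the 9 for all 7 genes, at 20.9 CPM for Acta2 and 57.6 CPM for Pdgfrb.

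No called difference with age was found among the 7 genes in any comparison. At 21 against 6 months edgeR called 0 of 7, beside 0.0153% of all tested genes, and 0 of 7 had an unadjusted p below 0.05, beside 10.6%. Groups of 21 and 6 months that did not overlap occurred for 0 of 7 genes and for 16.1% of all genes, and DESeq2 called 0 of 7, beside 1.53% of all. At 15 against 6 months the edgeR call was again 0 of 7, beside 0.00767%, with 0 at an unadjusted p below 0.05, 0 without overlap and 0 in DESeq2, beside 10.3, 13.8 and 0.874% of all genes. At 21 against 15 months all 4 counts were likewise 0 of 7, beside 0% in edgeR, 1.82% at an unadjusted p below 0.05, 6.14% without overlap and 0.023% in DESeq2. A test of any age difference also called 0 of 7 in edgeR, beside 0% of all genes, with adjusted p in edgeR from 0.771 for Tagln to 0.990 for Pdgfrb. In DESeq2 that test called 0 of 7 as well, and the share of all genes was not counted there. The intervals still allowed sizeable differences for the contractile genes. At 21 against 6 months they covered folds of 0.711 to 2.16 for Acta2 and 0.877 to 2.27 for Tagln.

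Of the uncalled differences at 21 against 6 months, 4 of 7 changed direction when 1 mouse was left out. At 21 against 6 months all 7 log2 differences were above 0, beside 48% of all tested genes, with a median of 0.16 and a median over all genes of -0.01. At 15 against 6 months all 7 were again above 0, beside 48.6%, with a median of 0.29 and a median over all genes of -0.01. The comparisons share the 6-month mice and are not independent. Without mouse 2 at 6 months, 3 of 7 were above 0 at 21 against 6 months, with a median of -0.03, and 4 of 7 at 15 against 6 months, with a median of 0.15. Without the 3 libraries outlying on the first component, 1 of 7 was above 0 at 21 against 6 months, with a median of -0.07, namely Cspg4, and Acta2 and Myh11 differed by -0.34 and -0.35. The 15-month differences without these libraries were above 0 for 4 of 7, with a median of 0.06. Between 21 and 15 months 2 of 7 were above 0, beside 49.2% of all genes, with differences from -0.20 for Acta2 to 0.03 for Pdgfrb and edgeR adjusted p of 1 for each. The value of Pdgfrb was -0.04 when either mouse 3 at 15 months or mouse 3 at 21 months was left out.

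**Figure D2:**
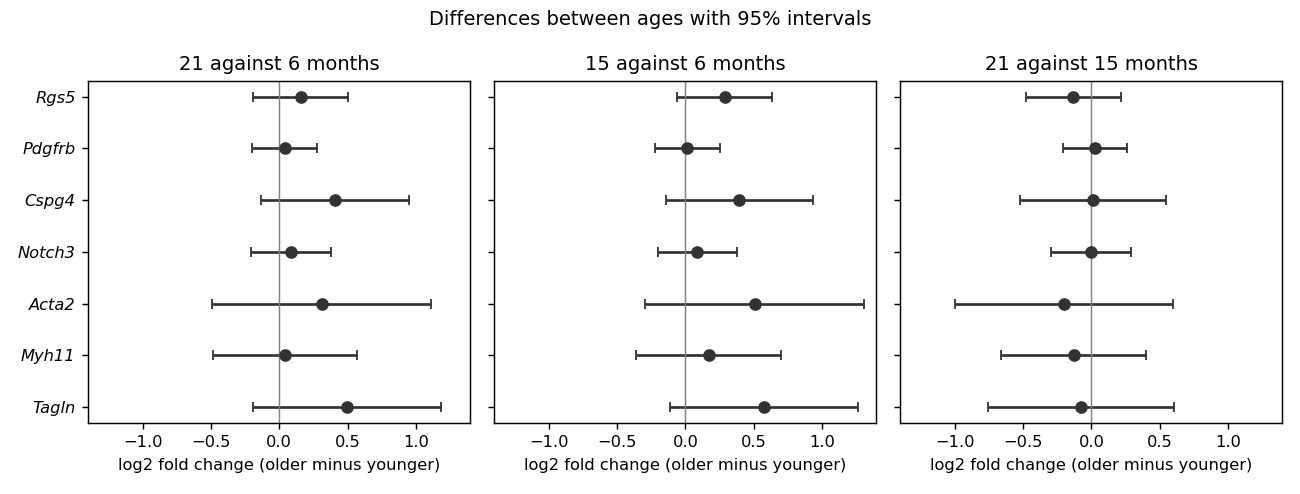
Log2 fold change (older over younger age) of each gene in the 3 comparisons, with points for the edgeR estimate and bars for the 95% interval. Every interval includes 0, and they are narrowest for Pdgfrb (-0.20 to 0.28 at 21 against 6 months) and widest for Acta2 (-0.49 to 1.11).

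Levels per kilobase of merged annotated exons allow the genes to be compared with each other. Over the 9 mice Rgs5 averaged 160.1 ± 23.2 CPM per kilobase (SD), and its lowest mouse, at 119, lay above the highest of every other member. Acta2 averaged 25.8 ± 8.25 and Tagln 17.7 ± 5.59 CPM per kilobase, and their ranges overlapped, at 9.52 to 35.97 and 7.78 to 26.0. Pdgfrb, at 11.7 ± 0.875, lay within the range of Tagln. Myh11 followed at 8.31 ± 1.73, with a highest mouse of 10.3 just below the lowest of Pdgfrb at 10.5, and overlapped with Notch3 at 5.72 ± 0.599. Cspg4 was lowest at 1.19 ± 0.276 CPM per kilobase, with no overlap with the others. Acta1, the skeletal actin, averaged 17010 on this scale, above each of the 7.

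The 7 genes differed in how much mice of the same age varied. Within-age SD on the log2 scale was 0.587 for Acta2, 0.489 for Tagln, 0.373 for Myh11 and 0.367 for Cspg4. Among genes of similar level these stood at the 98.2th, 97.1th, 94.7th and 92.3th percentile. Notch3 at 0.175, Rgs5 at 0.198 and Pdgfrb at 0.124 stood at the 68.4th, 51.3th and 41.1th percentile, near or below the median SD of 0.188 over all tested genes. The highest mouse held 3.78 times the lowest for Acta2 and 3.34 times for Tagln, but 1.38 times for Notch3. Part of this spread came with mouse 2 at 6 months. Without it the SD was 0.356 for Acta2, 0.368 for Tagln, 0.238 for Myh11 and 0.244 for Cspg4, at the 94.4th, 94.5th, 85.8th and 80.6th percentile of genes of similar level. Rgs5, Notch3 and Pdgfrb then stood at 0.162, 0.132 and 0.114, below the SD of the other 4. The highest mouse then held 1.91 times the lowest for Acta2, 1.92 times for Tagln and 1.25 times for Notch3.

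Mouse 2 at 6 months was the lowest of the 9 for 7 of 7 genes, beside 18.7% of all tested genes that were lowest there and 20.3% that were highest there. The genes were not low by the same factor in it. Its CPM ratio of Acta2 to Pdgfrb was 0.363, against 0.702 to 1.11 in the other 8 mice, and that of Tagln to Pdgfrb was 0.268, against 0.417 to 0.737. The ratio of Myh11 to Pdgfrb was 0.654, against 0.827 to 1.20, and that of Rgs5 to Pdgfrb 9.39, against 10.2 to 13.7. These ratios are read between mice only, since the genes differ in length.

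Marker sums of other cell types also stood apart in that library. The 11 endothelial markers summed to 669 CPM there and to 725 to 935 CPM in the other 8, and the 6 Schwann cell markers to 71.5 CPM, against 87.3 to 169 CPM. The 10 fibro-adipogenic progenitor markers summed to 4205 CPM, against 2683 to 3759 CPM, the 5 satellite cell markers to 73.9 CPM, against 48.8 to 60.8 CPM, and the 5 erythrocyte markers to 856 CPM, against 355 to 828 CPM. The endothelial and Schwann cell sums were thus lowest, and the fibro-adipogenic and satellite cell sums highest, in the mouse where all 7 genes were lowest. Most of the fibro-adipogenic sum there was Gsn, at 2335 CPM, and Dcn, at 1391 CPM, so it says little of the other markers of that list. Single markers did not all follow these sums. The endothelial markers Pecam1 and Flt1 were lower in mouse 3 at 6 months, and the satellite cell marker Cdh15 was higher in mouse 1 at 21 months. The high satellite cell sum rested largely on Chodl, at 32.4 CPM in mouse 2 at 6 months, against 12.8 to 19.5 CPM in the other 8. The part of these cell types in the low levels was not tested.

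**Figure D3:**
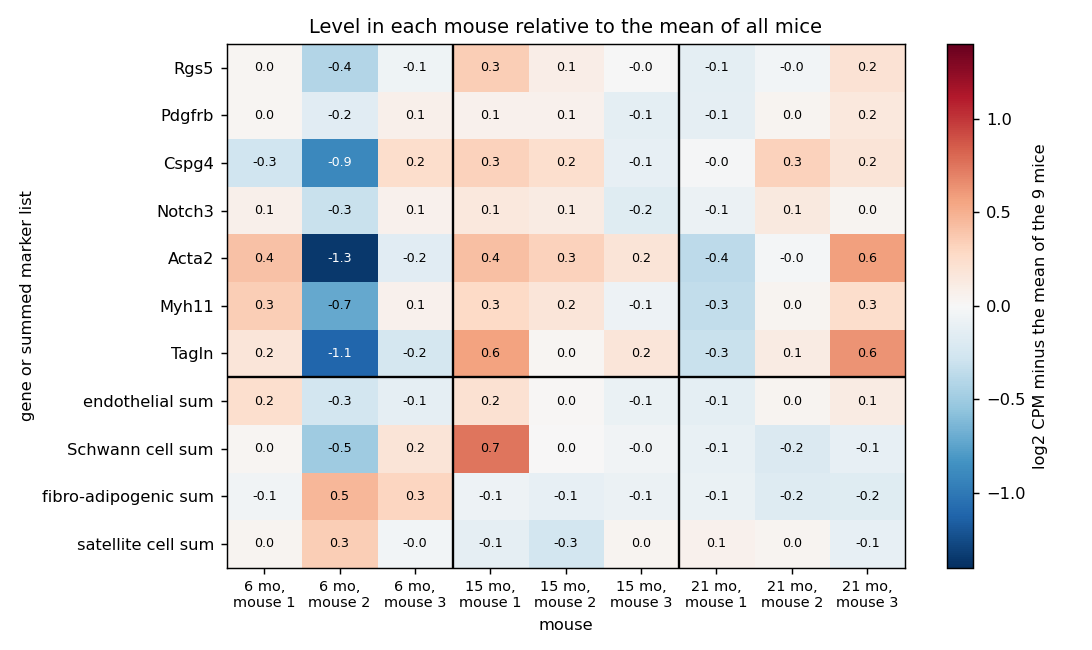
Level of each gene, and summed level of endothelial, Schwann cell, fibro-adipogenic progenitor and satellite cell markers, in each mouse, as log2 CPM minus the mean of the 9 mice (colour, with the value written in each cell). Mouse 2 at 6 months is the darkest blue column for the 7 genes, with Acta2 at 20.9 CPM. Its fibro-adipogenic sum of 4205 CPM, most of it Gsn and Dcn, is the highest of the 9.

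The 7 genes tended to be high and low in the same mice, and most of that relation rested on mouse 2 at 6 months. Over the 21 pairs of genes Pearson's r of log2 CPM ran from 0.674 to 0.956 (n = 9 mice), and 20 pairs passed an adjusted threshold of 0.05 by exact two-sided permutation. By Spearman's rho 5 pairs passed. How many pairs of other genes would pass was not counted, so these counts do not set the 7 genes apart. Without that mouse r ran from -0.03 to 0.88 with a median of 0.570, and 3 pairs passed by exact permutation. With deviations from the age means in place of levels, r over the 9 mice ran from 0.609 to 0.975. Without the 3 outlying libraries 0 pairs passed over the remaining 6 mice.

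Acta2 and Tagln were the closest pair, with r = 0.956 (exact permutation adjusted p = 0.00205), rho = 0.917 (exact permutation adjusted p = 0.0138) and r = 0.817 without the mice farthest from the median of Acta2. Acta2 and Myh11 had r = 0.948 (exact permutation adjusted p = 0.00292), rho = 0.867 (exact permutation adjusted p = 0.0237) and r = 0.727 without the farthest mice. Each of these pairs joins contractile proteins of smooth muscle, and each passed the threshold by r without mouse 2 at 6 months, at 0.874 and 0.858 (exact permutation adjusted p = 0.0405 for both). By rho both missed it without that mouse, at 0.881 and 0.810 (exact permutation adjusted p = 0.0760 and 0.114). Rgs5 and Tagln were the other pair that passed by r without it, with r = 0.883 (exact permutation adjusted p = 0.0405), but rho was 0.810 (exact permutation adjusted p = 0.114), and over all 9 mice r = 0.946 and rho = 0.867 (exact permutation adjusted p = 0.00251 and 0.0237).

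Rgs5 and Acta2 had r = 0.914 (exact permutation adjusted p = 0.00205) and the highest rho of all pairs, 0.967 (exact permutation adjusted p = 0.00347). Without the mice farthest from the median of Rgs5 r was 0.932, and without mouse 2 at 6 months alone it was 0.819 (exact permutation adjusted p = 0.0598), past the threshold by r no longer but still by rho at 0.952 (exact permutation adjusted p = 0.0240). Cspg4 and Acta2 were the pair that missed the threshold, with r = 0.722 (exact permutation adjusted p = 0.0569) and rho = 0.250 (exact permutation adjusted p = 0.521). Their r was -0.03 without that mouse, so the relation rests on it. Cspg4 with Myh11 and with Tagln showed the same dependence, with r of 0.704 and 0.735 over 9 mice and 0.104 and 0.177 without it.

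**Figure D4:**
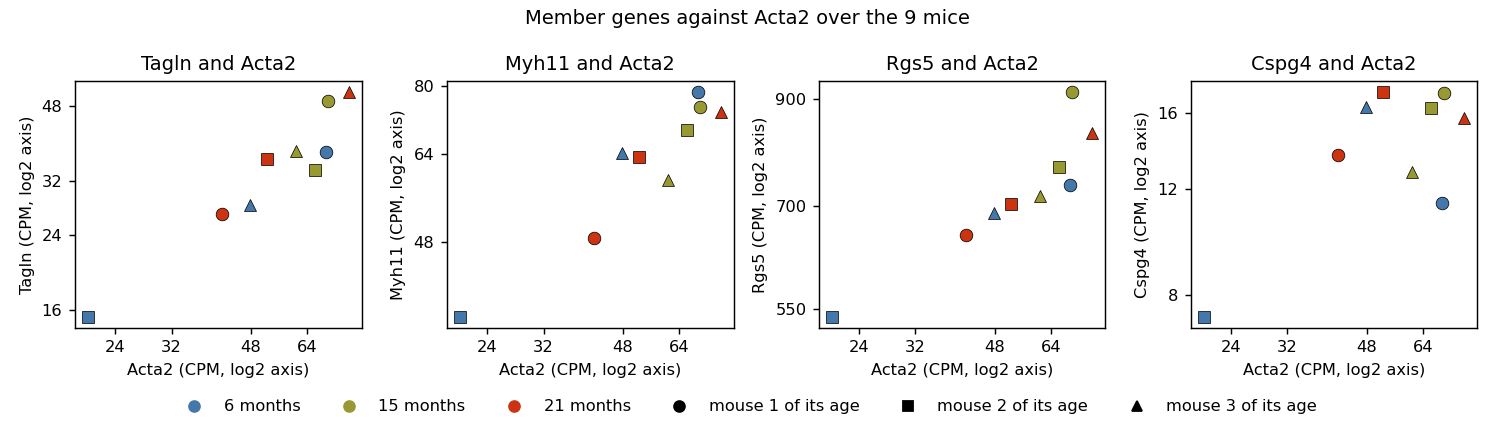
Tagln, Myh11, Rgs5 and Cspg4 (CPM, log2 axis) against Acta2 (CPM, log2 axis) in each of the 9 mice, coloured by age with symbols for the mouse of that age. Tagln, Myh11 and Rgs5 follow Acta2 among the 8 upper mice too (r of 0.874, 0.858 and 0.819 without mouse 2 at 6 months, the point at lower left), whereas Cspg4 does not (-0.03).

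Genes most alike in pattern were looked up among 9775 tested genes with a mean of at least 5 CPM, as a description over the 9 mice. Acta2 was closest to Myl2 (r = 0.964), the regulatory light chain of slow and cardiac muscle myosin, then to Dusp22 (0.957) and Tagln (0.956). Tagln was closest to Ednra (0.976), the endothelin A receptor of smooth muscle, then to Myl2 (0.964) and Cavin2 (0.956), a caveola protein. Both had Myl2 among their nearest, and the sum of slow and type 2A fibre genes, to which Myl2 belongs, was itself lowest in mouse 2 at 6 months. Myh11 was closest to Elk3 (0.966), Syne2 (0.961) and Luzp1 (0.958), and its nearest member, Acta2, ranked 6th.

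The 3 nearest patterns of each pericyte gene lay outside the 7, as did those of Myh11 and Tagln. These ranks include mouse 2 at 6 months. Rgs5 was closest to Ephx2 (0.974), Vgll2 (0.974) and Ttc41 (0.972), with Tagln as its nearest member at rank 33. Pdgfrb was closest to Mark1 (0.960), Spry4 (0.947), an inhibitor of receptor tyrosine kinase signalling, and Mrs2 (0.939), with Notch3 at rank 67. Cspg4 was closest to Mtx3 (0.973), Efr3b (0.970) and Rngtt (0.968), with Notch3 at rank 130. Notch3 was closest to Abhd2 (0.945), Paxip1 (0.938) and Rasgrf2 (0.934), with Cspg4 at rank 37.

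Other genes of these cells and pathways were read from lists covering the pericyte, smooth muscle, Notch and growth factor systems and the neighbouring cell types, in which 133 of 140 genes were tested. In edgeR 0 of the 133 were called in each comparison. At an unadjusted p below 0.05 there were 24 at 21 against 6 months, 24 at 15 against 6 months and 3 at 21 against 15 months, beside 10.6, 10.3 and 1.82% of all tested genes. DESeq2 called 5, 1 and 0 in the same order, beside 1.53, 0.874 and 0.023% of all. The 5 were Kcnj8, Notch1, Notch4, Emcn and Gsn, and the 1 was Kcnj8. Notch4 falls outside the naming rule and was chosen after its values were seen, as were the further pericyte genes named by p below. Pdgfb, named as the ligand of Pdgfrb, falls outside that rule too.

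Among the 15 pericyte markers, 13 were above 0 at 21 against 6 months with a median of 0.30, beside 48% of all genes and a median of -0.01. The 15-month mice had 11 above their level at 6 months, with a median of 0.40. Without mouse 2 at 6 months 9 of 15 were above 0 in each of these comparisons, with medians of 0.16 and 0.17. Without the 3 outlying libraries it was again 9 of 15 in each, with medians of 0.06 and 0.07. With scaling by total counts in place of TMM 15 and 14 were above 0, with medians of 0.38 and 0.47. That scaling moved all tested genes upward too, to a median of 0.07 in each of these comparisons. Kcnj8, the pore subunit of an ATP-sensitive potassium channel of pericytes, had 23.1, 20.8 and 22.8 CPM at 6 months, 41.5, 37.5 and 30.3 CPM at 15 months and 28.7, 37.2 and 40.3 CPM at 21 months. Every mouse at 15 and 21 months thus lay above every mouse at 6 months.

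Kcnj8 differed by 0.67 at 21 against 6 months (SE 0.15, adjusted p of 0.138 in edgeR and 0.0103 in DESeq2) and by 0.71 at 15 against 6 months (SE 0.15, adjusted p of 0.194 in edgeR and 0.00813 in DESeq2). When mouse 2 at 6 months was left out the edgeR values were 0.62 (adjusted p = 0.379) and 0.67 (adjusted p = 0.483). Abcc9, the regulatory subunit that pairs with it and the second most abundant of the list, was at 414 ± 32.7 CPM at 21 months, against 433 ± 56.2 CPM at 6 months (SD, n = 3 each), a difference of -0.07 (SE 0.13, edgeR adjusted p = 0.897). It was lowest, at 363 and 376 CPM, in mouse 1 at 15 months and mouse 3 at 21 months, where Kcnj8 was highest. Which cells the Abcc9 counts came from was not tested. Cox4i2, Rgs4, Higd1b, Gja4 and Vtn also had an unadjusted p below 0.05 at 21 against 6 months, all above 0, with differences from 0.47 for Vtn to 0.68 for Cox4i2 and edgeR adjusted p from 0.204 to 0.404. Of the 15 markers 6 had such a p over all 9 libraries, and 2 of 15, Kcnj8 and Vtn, did when mouse 2 at 6 months was left out. Vtn, which encodes vitronectin, averaged 35.6 ± 4.37 CPM at 21 months, against 25.6 ± 1.93 CPM at 6 months (SD, n = 3 each), without overlap. The estimates of Kcnj8 and these 5 genes were each larger than those of Rgs5, Pdgfrb, Cspg4 and Notch3. They were picked by their p, which favours large estimates, so this contrast does not set them apart. The difference between the genes was not tested.

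**Figure D5:**
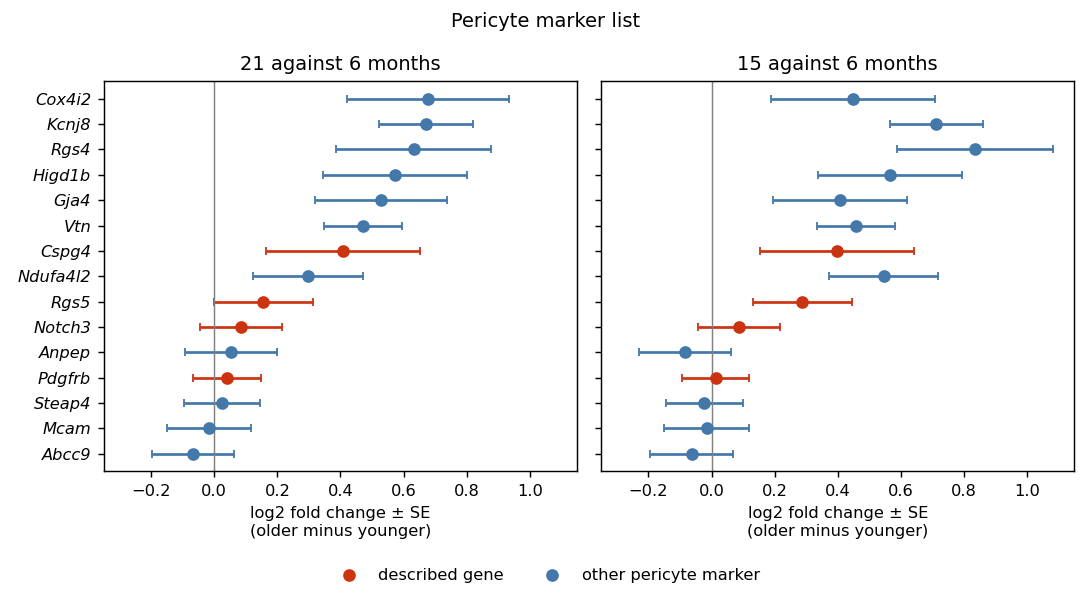
Log2 fold change (older over younger age, points) with its SE (bars) for the 15 pericyte markers at 21 against 6 months and at 15 against 6 months, with the 4 described genes in red. Kcnj8 lies at 0.67 and 0.71, and Pdgfrb at 0.04 and 0.01.

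Among smooth muscle contractile and marker genes, 8 of the 13 tested were above 0 at 21 against 6 months, with a median of 0.13. The count was the same at 15 against 6 months, with a median of 0.17. Leaving out mouse 2 at 6 months made the counts 5 and 7 of 13, and without the 3 outlying libraries 2 and 4 of 13. The most abundant were Smtn, an actin-binding protein, at 68.5 ± 17.6 CPM at 21 months, against 78.5 ± 14.5 CPM at 6 months, and Cald1, caldesmon, at 74.6 ± 8.86 CPM and 68.0 ± 7.25 CPM at these ages (SD, n = 3 each). Neither was called, with differences of -0.20 and 0.13 (SE 0.19 and 0.14, edgeR adjusted p = 0.752 and 0.784). Itga8, an integrin of smooth muscle and other contractile cells, had the smallest p, with a difference of -0.50 (SE 0.17, edgeR adjusted p = 0.343).

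Of the PDGF ligands and receptors, 3 of 6 were above 0 at 21 against 6 months, and the 15-month mice had 4 of 6 above their level at 6 months. Without mouse 2 at 6 months these counts were 2 and 3 of 6. Pdgfb, the ligand that endothelium offers to Pdgfrb, differed by 0.13 at 21 against 6 months. Pdgfra, the receptor of fibro-adipogenic progenitors, was at 58.7 ± 4.24 CPM at 21 months, against 70.5 ± 8.41 CPM at 6 months (SD, n = 3 each), a difference of -0.27 (SE 0.13, edgeR adjusted p = 0.482). None of the 6 was called in edgeR or DESeq2 in any comparison, and 0, 1 and 0 had an unadjusted p below 0.05 at 21 against 6, 15 against 6 and 21 against 15 months.

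In the Notch list 13 of 16 genes were below 0 at 21 against 6 months, with a median of -0.18, and Notch3 was among the 3 above 0. Leaving out mouse 2 at 6 months gave 13 below 0 again, and with total count scaling 11 were. Notch1, a receptor of endothelium and other cells, had 32.7, 27.1 and 30.3 CPM at 6 months, 24.5, 18.9 and 21.6 CPM at 15 months and 21.3, 18.1 and 18.9 CPM at 21 months. Its 21-month and 6-month mice did not overlap, and the difference was -0.63 (SE 0.12, adjusted p of 0.0854 in edgeR and 0.00527 in DESeq2). Notch4, the endothelial receptor, averaged 13.7 ± 2.51 CPM at 21 months, against 22.8 ± 3.49 CPM at 6 months (SD, n = 3 each), a difference of -0.73 (SE 0.16, adjusted p of 0.138 in edgeR and 0.0120 in DESeq2). Notch3 differed by 0.08, and the difference between receptors was not tested. Rbpj, the nuclear effector of all Notch receptors, was at 60.6 ± 3.10 CPM at 21 months, against 59.1 ± 4.29 CPM at 6 months (SD, n = 3 each).

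Among smooth muscle transcription factors and cofactors 6 of 11 tested genes were above 0 at 21 against 6 months. Srf, serum response factor, was at 83.0 ± 7.25 CPM at 21 months, against 92.5 ± 11.1 CPM at 6 months (SD, n = 3 each), a difference of -0.16 (SE 0.12, edgeR adjusted p = 0.675). Klf4, a factor known to repress contractile genes in smooth muscle, differed by -0.55 (SE 0.19, edgeR adjusted p = 0.329). In the vessel tone list 10 of 13 genes were above 0, and Ppp1r12b, a myosin phosphatase subunit, had the smallest p, with a difference of 0.25 (SE 0.10, edgeR adjusted p = 0.411). Of 9 mural cell recruitment signals 5 were above 0, and S1pr1, a receptor for sphingosine 1-phosphate, differed by -0.73 (SE 0.23, edgeR adjusted p = 0.282). Of the 5 tested R4 family RGS genes 3 were above 0, and Rgs4 differed by 0.63 (SE 0.25, edgeR adjusted p = 0.391). Without mouse 2 at 6 months the counts above 0 in these lists were, in the same order, 4 of 11, 7 of 13, 4 of 9 and 3 of 5.

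Markers of other cell types were read in the same way at 21 against 6 months. Endothelial markers were above 0 for 5 of 11, with a median of -0.02. Emcn, the endothelial sialomucin endomucin, averaged 29.4 ± 2.27 CPM at 21 months, against 19.1 ± 2.80 CPM at 6 months (SD, n = 3 each), a difference of 0.62 (SE 0.13, adjusted p of 0.135 in edgeR and 0.0109 in DESeq2), while Pecam1, the pan-endothelial marker, differed by 0.07. Fibro-adipogenic progenitor markers were above 0 for 5 of 10, and Gsn, gelsolin, differed by -0.54 (SE 0.16, adjusted p of 0.248 in edgeR and 0.0303 in DESeq2). Gsn was highest in mouse 2 at 6 months, at 2335 CPM. Schwann cell markers were above 0 for 2 of 6, satellite cell markers for 2 of 5, erythrocyte markers for 0 of 5 and skeletal muscle identity genes for 0 of 6. Without mouse 2 at 6 months the counts for Schwann cell, satellite cell and erythrocyte markers were 0 of 6, 3 of 5 and 5 of 5, and without the 3 outlying libraries 0 of 6, 3 of 5 and 0 of 5. Slow and type 2A fibre genes were above 0 for 7 of 7, with a median of 2.68, which was 2.24 without mouse 2 at 6 months and 0.42 without the 3 outlying libraries.

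Annotation limits the reading of some of the 7 genes. Exons of Tagln share 1241 bases, 62.4% of its merged exons, with the antisense gene Gm48529 and 108 bases with Pcsk7 on the other strand, which averaged 19.8 CPM. Notch3 shares 488 bases, 6.03% of its exons, with the antisense gene Gm17276. The use of strand, a detail not given in the sources used here, decides where reads of these overlaps go. Of the stretches of 50 bases in annotated transcripts, Acta2 shared 7 of 2146 exactly with another gene and 0 with the abundant skeletal actin Acta1. Myh11 shared 26 of 7644, all with Myh9, Notch3 shared 7 of 8086, and Rgs5, Pdgfrb, Cspg4 and Tagln shared 0.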

How the data were processed

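RNA was extracted with TRIzol, selected with oligo(dT) beads and sequenced from DNA nanoballs, per the labels' protocols. The authors deposited 1 table of estimated counts per gene and library, in which 90.0 to 90.7% of values were whole within 0.005. Genome build mm10 is named per the submitters' processing notes. Aligner, counter and strand were not given in the sources used here.

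Columns were matched to mice by their names. Counts were rounded, filtered with filterByExpr (minimum count 10) and scaled with TMM (factors 0.923 to 1.05). With edgeR 4.0.16 in R 4.3.3, a quasi-likelihood model of age was fitted jointly to the 9 libraries, after the procedure had been tested on simulated counts. Its biological coefficient of variation was 0.164. Counting error adds to the spread between mice in genes of low level. DESeq2 1.42.0, RLE and total count scaling, other filters, a replicate block, the groups compared alone and leaving out libraries were tried as alternatives. Relations between genes were tested by exact two-sided permutation, adjusted over the 21 pairs. Coordinates and promoters come from RefSeq and exons from GENCODE M21, both of the assembly behind mm10.

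The 7 genes and the 15 lists were chosen with earlier results of these data known. All 7 are named, and of each list those called, the 2 highest in mean CPM and the smallest p in each comparison could be named, as were the 3 genes of most similar pattern per member.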

Additional observations from a re-analysis of the deposited data

How the results depend on the processing

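In each comparison 0 of the 7 genes were called under every alternative tried, namely DESeq2, RLE or total count scaling, no filter, at least 5 CPM in 3 libraries, a replicate block, only the groups compared, and leaving out each library or the 3 outlying ones. Few of all tested genes were called either. At 21 against 6 months DESeq2 called 200, leaving out mouse 3 at 6 months 42, no filter 30 and each other alternative at most 7. At 15 against 6 months the counts were 114 in DESeq2, 10 without mouse 3 at 6 months and at most 1 otherwise. At 21 against 15 months they were 3 in DESeq2 and 0 otherwise. The 0 of 7 thus does not set these genes apart. The smallest adjusted p of any of the 7 under the alternatives was 0.197 at 21 against 6 months, 0.232 at 15 against 6 months and 0.723 at 21 against 15 months.

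Signs were less stable. Without the 3 outlying libraries the differences at 21 against 6 months were -0.068 for Rgs5, -0.093 for Pdgfrb, -0.032 for Notch3, -0.34 for Acta2, -0.35 for Myh11 and -0.060 for Tagln. At 15 against 6 months they were -0.082 for Pdgfrb, -0.086 for Notch3 and -0.15 for Myh11, and at 21 against 15 months -0.010 for Pdgfrb and 0.054 for Notch3. Notch3 at 21 against 15 months also passed 0 under RLE scaling (4.9e-06) and the filter of 5 CPM (0.00028). Leaving out each library in turn gave ranges at 21 against 6 months of -0.028 to 0.11 for Pdgfrb, -0.035 to 0.15 for Notch3, -0.043 to 0.74 for Acta2, -0.21 to 0.28 for Myh11, 0.032 to 0.25 for Rgs5, 0.16 to 0.73 for Cspg4 and 0.22 to 0.81 for Tagln. At 15 against 6 months they were -0.053 to 0.076 for Pdgfrb, -0.030 to 0.18 for Notch3, -0.076 to 0.41 for Myh11, 0.17 to 0.38 for Rgs5, 0.15 to 0.73 for Cspg4, 0.16 to 0.94 for Acta2 and 0.29 to 0.88 for Tagln. At 21 against 15 months they were -0.098 to 0.054 for Notch3, -0.041 to 0.095 for Pdgfrb, -0.11 to 0.098 for Cspg4, -0.27 to 0.016 for Myh11 and -0.35 to 0.12 for Tagln. The cause was not tested.

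Of the 21 relations 20 passed over 9 mice, 3 without mouse 2 at 6 months, an alternative chosen after seeing the data, and 0 without the 3 outlying libraries, where fewer mice remain. Without these r was -0.35 for Cspg4 and Acta2, -0.11 for Cspg4 and Myh11, -0.28 for Cspg4 and Tagln and -0.015 for Rgs5 and Cspg4. Without mouse 2 at 6 months r of Cspg4 and Acta2 was -0.027.

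Deviations of same-numbered mice had correlations from -0.42 to 0.41, with 2 of 9 above 0.1. With so few mice per age, these correlations cannot decide whether the numbers pair the mice. With the replicate block 0 of 7 genes were called in each comparison, and Notch3 at 21 against 15 months was at 0.00076. Over all genes the block called 5 at 21 against 6 months and 0 at 15 against 6 months, where the fit without it called 2 and 1. Among the 7 genes depth limits Cspg4 most, whose smallest reading rested on 118 counts.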
